A study of Homo sapiens with 9 samples.

Results

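Genes of double-stranded RNA sensing and the interferon response were followed in the human glioma line U87, transfected with one of 3 microRNA duplexes. The module held 40 genes of 19775 with a probe set for a single gene. They were taken from a list of symbols made with earlier results of these data known. The list held RNA sensors and their adaptor, interferon regulatory factors, interferon beta and its receptor chains, interferon-stimulated antiviral genes, and genes of antigen presentation. Each gene was represented by its brightest probe set over the 9 arrays. In all, 32 of the 40 were bright enough to test, meaning a signal above the median of its array on at least 3 arrays, and 8 were not.

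Cells sense double-stranded RNA through cytoplasmic helicases such as IFIH1 (MDA5), which signal through the mitochondrial adaptor MAVS, through TLR3 in endosomes, and through the kinase EIF2AK2 (PKR), which halts translation. Signalling to IRF3 and IRF7 turns on interferon beta, which acts on the IFNAR1 and IFNAR2 receptor and, through a complex that contains IRF9, switches on interferon-stimulated genes carrying an interferon-stimulated response element in the promoter. Transfected RNA duplexes can trigger this pathway, which raises the question whether the response to the duplex differed among the groups.

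Duplexes were given at 50 nM in Lipofectamine RNAiMAX and RNA was taken at 72 h, with 3 arrays for each of miR-376a*A, miR-376a*G and miR-control. The A and G in the names are 2 forms of one miRNA, known as the unedited and the edited form. No untransfected or mock-transfected group is in the labels, so a response common to all 3 duplexes was not measurable here. The replicates are called biological, and nothing says which cultures they came from, so p-values measure the spread between these arrays.

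The reference form of the miRNA, hsa-miR-376a-5p of MIR376A1 (RefSeq, GRCh38.p14, chr14:101040788-101040809, plus strand), is shown with its seed, bases 2 to 8, in capitals to identify the duplex; the labels give no sequence of the transfected RNAs.
hsa-miR-376a-5p: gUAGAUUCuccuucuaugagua

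As labelled, 1 array in each of the miR-376a*A and miR-control groups stood apart from its group. Over the tested genes, miR-376a*A replicate 1 correlated at 0.987 to 0.990 with miR-control replicates 2 and 3, and at 0.925 to 0.934 with the other miR-376a*A arrays. Likewise, miR-control replicate 1 correlated at 0.934 to 0.935 with the other control arrays, but at 0.982 to 0.990 with replicates 2 and 3 of miR-376a*A. The miR-376a*G arrays correlated with each other at 0.986 to 0.988. Among the 32 tested members, miR-376a*A replicate 1 lay nearer the mean of control replicates 2 and 3 than that of its own group for 28, and control replicate 1 nearer the mean of miR-376a*A replicates 2 and 3 for 22. Both go against their labels, so results that rest on them are given with and without these 2 arrays. Markers of the mesenchymal glioma line (VIM, CD44, SPARC, TNC, CHI3L1) were all tested and summed to a signal of 8269 to 10870 with miR-376a*A, 7008 to 7504 with miR-376a*G and 7511 to 9195 with miR-control. CHI3L1 alone of these 5 was called against control, 8.19-fold lower with miR-376a*G (log2 difference -3.03 ± 0.19 SE, adjusted p = 1.3e-05), with signals of 952, 1297 and 1366 with miR-376a*A, 112, 121 and 115 with miR-376a*G and 1249.6, 816 and 861 with miR-control. The 4 astrocyte markers summed to 36.2 to 53.9, 55.8 to 58.2 and 31.75 to 37.0 in the same order of groups. Of these, GFAP and S100B were at most 5.66 and 1.30, AQP4 at most 11.9, and ALDH1L1, at 24.0 to 43.6 the only one tested, rose with miR-376a*G over control (log2 difference 0.68 ± 0.18 SE, adjusted p = 0.02). None of 5 leukocyte markers passed the filter, and their sum was 26.8 to 49.2 with miR-376a*A, 29.5 to 57.8 with miR-376a*G and 30.0 to 48.9 with miR-control. Of 3 epithelial markers none was tested (sums of 17 to 50.6 per array), and of 3 endothelial markers 1 was (53.35 to 158.8). Median signal was 18 to 21.1 on the miR-376a*A arrays, 21.7 to 24.6 with miR-376a*G and 18.5 to 22 with miR-control. The mean log2 signal of the hybridisation controls was 7.82 to 7.92, 7.12 to 7.29 and 7.51 to 7.70 in the same order, and the part of these shifts and of the markers in the results was not tested.

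**Figure D1:**
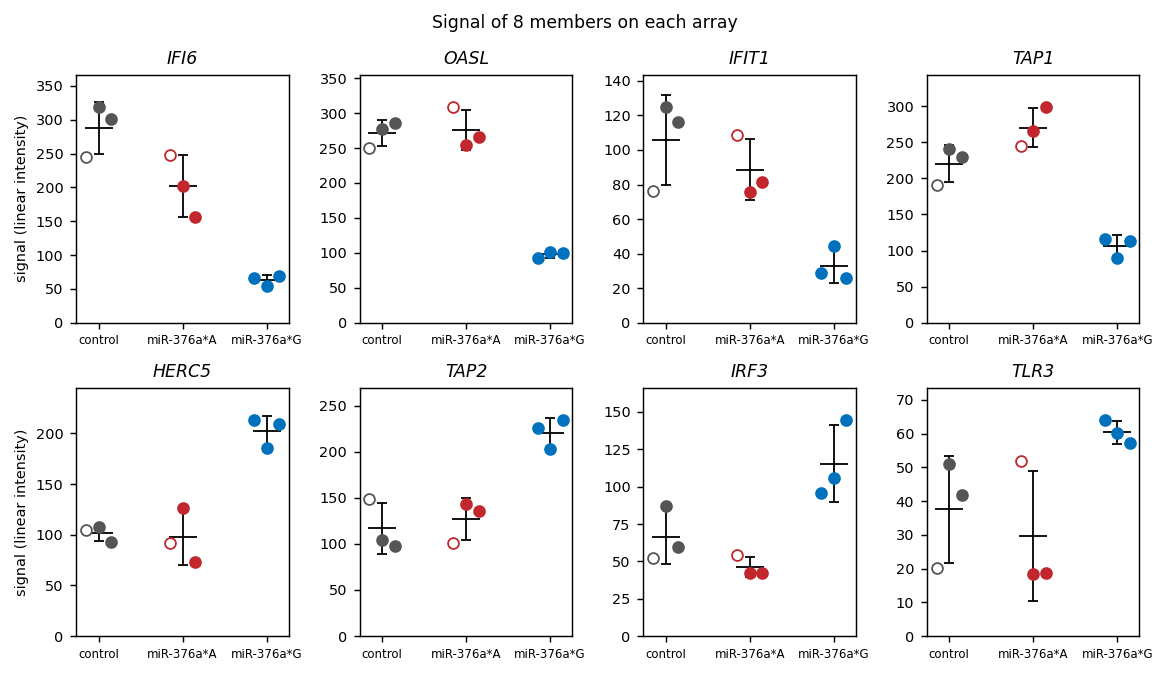
Signal (linear intensity, y axis from 0) of 8 members on each array, by group. Circles are arrays, with open circles for miR-376a*A replicate 1 and miR-control replicate 1, and bars are the mean ± SD of 3 arrays. IFI6, OASL, IFIT1 and TAP1 are lower and HERC5, TAP2 and IRF3 higher on all 3 miR-376a*G arrays, and for TLR3 the open circles lie with the other group.

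The response element was searched as GAAA, any 2 bases and GAAA, on both strands, in RefSeq promoters (GRCh38.p14) from 250 bases before to 50 after a gene's start. Of the 40 members, 30 had a promoter there (the other 10 were DHX58, IRF2, IRF3, IRF7, IFNAR2, IFIT2, OAS2, OASL, MX2 and USP18), and 22 of them held the motif (73.3%), against 1195 of 27305 genes (4.38%) and 1255 of 35116 promoters (3.57%). Among those with a promoter, the motif was present in 4 of 6 members that fell with miR-376a*G against control, 3 of 4 that rose and 10 of 14 that were not called. A match describes letters and not a site that is in use. The promoters of 5 members are shown because their differences between miR-376a*G and control kept their calls under each alternative run and went both ways: IFI6, IFIT1 and TAP1 fell and HERC5 and TAP2 rose. Capitals mark the motif on either strand, and adjacent capitals can be overlapping matches. In IFI6 it occurs 3 times, in IFIT1 2 times, in TAP1 2 times, in HERC5 3 times and in TAP2 1 time. TAP1 had 2 promoters, and only that shown held the motif.
IFI6, chr1:27672143-27672442, minus strand: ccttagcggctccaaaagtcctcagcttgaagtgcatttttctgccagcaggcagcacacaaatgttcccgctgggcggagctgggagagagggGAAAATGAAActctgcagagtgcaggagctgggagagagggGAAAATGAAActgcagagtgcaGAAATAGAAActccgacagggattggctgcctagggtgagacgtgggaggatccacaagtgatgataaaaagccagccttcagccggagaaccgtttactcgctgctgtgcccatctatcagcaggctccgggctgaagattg
IFIT1, chr10:89392373-89392672, plus strand: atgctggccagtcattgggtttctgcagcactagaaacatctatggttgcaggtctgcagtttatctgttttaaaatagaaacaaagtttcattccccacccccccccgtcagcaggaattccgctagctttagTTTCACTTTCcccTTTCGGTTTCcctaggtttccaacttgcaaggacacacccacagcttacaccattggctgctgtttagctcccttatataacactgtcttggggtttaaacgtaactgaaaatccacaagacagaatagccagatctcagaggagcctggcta
TAP1, chr6:32853655-32853954, minus strand: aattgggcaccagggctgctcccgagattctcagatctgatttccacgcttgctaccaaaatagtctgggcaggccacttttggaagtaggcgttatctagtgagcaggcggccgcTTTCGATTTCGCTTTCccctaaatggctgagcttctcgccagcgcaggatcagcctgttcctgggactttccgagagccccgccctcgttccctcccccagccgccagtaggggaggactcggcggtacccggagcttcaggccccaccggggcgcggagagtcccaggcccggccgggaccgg
HERC5, chr4:88456869-88457168, plus strand: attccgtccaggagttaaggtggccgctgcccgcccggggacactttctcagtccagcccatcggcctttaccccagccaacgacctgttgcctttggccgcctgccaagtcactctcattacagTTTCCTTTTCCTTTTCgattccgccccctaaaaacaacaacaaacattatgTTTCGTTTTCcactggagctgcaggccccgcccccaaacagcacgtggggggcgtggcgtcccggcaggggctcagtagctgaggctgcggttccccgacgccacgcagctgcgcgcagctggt
TAP2, chr6:32838690-32838989, minus strand: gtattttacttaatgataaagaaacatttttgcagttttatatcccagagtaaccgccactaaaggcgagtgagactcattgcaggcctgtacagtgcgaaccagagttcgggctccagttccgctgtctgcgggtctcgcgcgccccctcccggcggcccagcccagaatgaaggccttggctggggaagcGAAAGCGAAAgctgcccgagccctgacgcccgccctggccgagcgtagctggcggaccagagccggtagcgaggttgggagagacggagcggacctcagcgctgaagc

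In the miR-376a*G cells, interferon-stimulated genes did not move as a block: some were lower than with miR-control and others were higher. IFI6, a small mitochondrial and endoplasmic reticulum antiviral protein, fell 4.51-fold, IFIT1 fell 3.17-fold, OASL 2.75-fold and TAP1 2.06-fold, whereas HERC5 rose 1.98-fold and TAP2 1.91-fold. Of the 32 tested members, 6 rose and 8 fell (limma, adjusted p under 0.05 over 12587 genes), which is 43.8% against 33.4% of all tested genes. By direction, 18.8% of the members rose against 18% of all genes, and 25% fell against 15.4%. The median log2 difference of the members was -0.076, beside 0.12 over all tested genes. The groups did not overlap for 21 members (65.6%), beside 53.4% of all genes. In bulk RNA, fewer cells of a type and less RNA per cell cannot be told apart.

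Of the 14 calls, 6 held under each of the 21 alternatives run: IFIT1, OASL, HERC5, IFI6, TAP1 and TAP2. The split of the calls by direction followed the scaling of the arrays, with 2 rising and 11 falling when arrays were centred on their medians, 5 and 9 after quantile normalization, and 10 and 4 when scaled to the hybridisation controls. Of all genes, 29.1%, 35.2% and 51.9% were called under these settings, so that the 14 of 32 members called under the last were a smaller share than that of all genes. The median over all genes moved from 0.12 to -0.12, 0.075 and 0.51 under these scalings, and the members' median lay at -0.19, -0.27 and -0.19 relative to it, beside -0.19 as deposited. Centring and scaling to the hybridisation controls shift each array as a whole, so they could not change this distance. Only quantile normalization could. Leaving out miR-376a*G replicate 1 or miR-control replicate 3 reduced the calls to 9 each, while the share of all genes called fell to 23.9% and 26.6%. Without both arrays that stood apart, 7 members rose and 12 fell (59.4%, beside 56.1% of all genes, of which 31.2% rose and 25% fell), with all 14 calls kept in sign and IFIH1, EIF2AK2, IFIT5, MX2 and IFI35 gained.

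**Figure D2:**
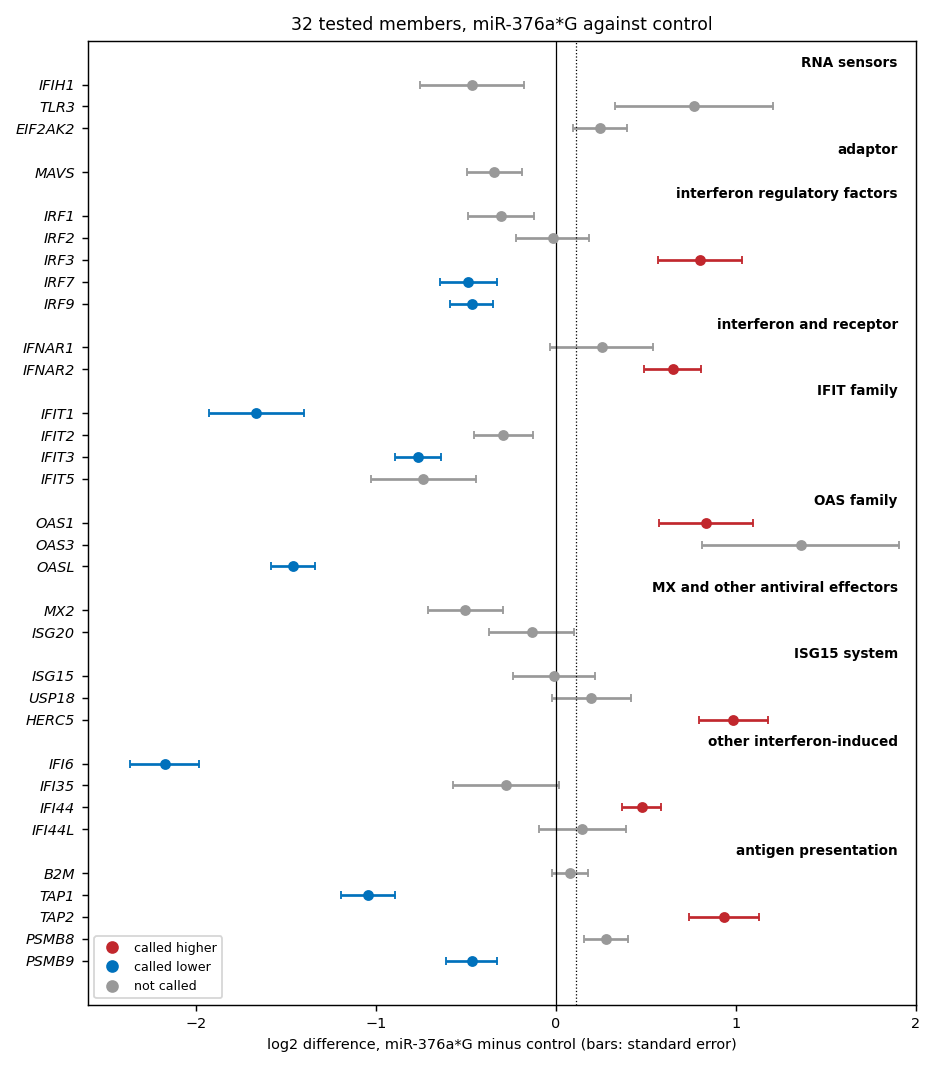
Log2 difference between miR-376a*G and control (x axis) for the 32 tested members, ordered by role; points are the fitted differences of 3 against 3 arrays, bars the standard error, and colours the call. The dotted line marks 0.12, the median of all tested genes. Among called members, both directions occur in interferon regulatory factors, the OAS family, other interferon-induced genes and antigen presentation. The called members run from -2.17 for IFI6 to 0.99 for HERC5.

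The miR-376a*A and miR-376a*G groups were set against each other with the same fit. Here 8 members were higher and 8 lower with miR-376a*A (50%, beside 38.2% of all tested genes, 16.4% higher and 21.8% lower), and the median was 0.075, beside -0.14 over all genes. The groups did not overlap for 18 members (56.2%, beside 53.5%). IFI6 was 3.13-fold, OASL 2.80-fold, IFIT1 2.68-fold and TAP1 2.53-fold higher with miR-376a*A. This comparison shares the miR-376a*G arrays with the one against miR-control, so each member's values in both are given side by side below. Calls on IRF3, IFIT1, OASL, HERC5, IFI6, TAP1 and TAP2 held under each of the 21 alternatives. With scaling to the hybridisation controls 4 were higher and 18 lower, with arrays centred on their medians 10 and 3, and after quantile normalization 8 and 6. All genes then had medians of -0.81, 0.11 and -0.083, and 70.6%, 33.6% and 39.5% of them were called. Without both arrays that stood apart, 11 were higher and 13 lower (75%, beside 59.6% of all genes, 25.7% higher and 34% lower), with all 16 calls kept.

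Interferon beta itself was not detected at a level that could be tested in any group. Its signal was 0.52, 0.84 and 0.79 on the miR-376a*A arrays, 0.98, 0.69 and 0.88 with miR-376a*G and 0.81, 0.56 and 0.68 with miR-control, under the median of each array. The 3 ranges overlapped.

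No tested RNA sensor was called in any of the 3 comparisons with all 9 arrays on the deposited scale and a pseudocount of 1. Of all tested genes, 0% were called for miR-376a*A against control, 33.4% for miR-376a*G against control and 38.2% between the miRNA forms. IFIH1, the helicase that binds long double-stranded RNA, had signals of 64.6, 30.8 and 54.0 with miR-376a*A, 37.2, 35.8 and 41.1 with miR-376a*G and 38.8, 62.5 and 60.4 with miR-control. The control and miR-376a*G groups overlapped through control replicate 1, and the gene was not called (log2 difference -0.46 ± 0.29 SE, adjusted p = 0.246); without both arrays that stood apart the difference was -0.68 (adjusted p = 0.0235). The endosomal receptor TLR3 read 51.95, 18.4 and 18.6 with miR-376a*A, 63.97, 60.2 and 57.1 with miR-376a*G and 20.1, 50.9 and 41.7 with miR-control. All 3 miR-376a*G arrays were above every other array, and miR-376a*A replicate 1 and control replicate 1 each lay near the remaining values of the other group. Neither miR-376a*G against control (log2 difference 0.77 ± 0.44 SE, adjusted p = 0.209) nor miR-376a*A against miR-376a*G (log2 difference -1.17 ± 0.44 SE, adjusted p = 0.0619) was called. Without both arrays the latter was -1.65 (adjusted p = 1.1e-05), and it was also called without control replicate 1 alone (adjusted p = 0.0299) or without miR-376a*A replicate 1 alone (-1.65, adjusted p = 0.00466). With no array left out it was called under scaling to the hybridisation controls (-1.84, adjusted p = 0.00483) and with a pseudocount of 64 (-0.43, adjusted p = 0.0491). With only the compared groups in the fit, which leaves out the control arrays, it was called too (adjusted p = 0.0476). The kinase EIF2AK2 gave 509, 701 and 619 with miR-376a*A, 553.5, 685 and 543 with miR-376a*G and 562, 468 and 471 with miR-control, with overlapping groups and no call for miR-376a*G against control (log2 difference 0.24 ± 0.15 SE, adjusted p = 0.242). Scaled to the hybridisation controls that difference was 0.64 (adjusted p = 0.00624) and that of miR-376a*A from miR-376a*G was -0.63 (adjusted p = 0.00427). Without both arrays the difference from control was 0.33 (adjusted p = 0.0232).

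MAVS, the adaptor downstream of the helicases, was lower on every miR-376a*G array than on any other. Its signals were 105, 138 and 123 with miR-376a*A, 83.4, 70.5 and 86.7 with miR-376a*G and 113, 98.9 and 93.9 with miR-control. Against control it was not called (log2 difference -0.34 ± 0.15 SE, adjusted p = 0.116), except with arrays centred on their medians (-0.57, adjusted p = 0.00851), and against miR-376a*G the miR-376a*A group was higher (log2 difference 0.59 ± 0.15 SE, adjusted p = 0.014). That call was lost with its sign kept in 3 alternatives. Among them were the fit without miR-376a*G replicate 2 (adjusted p = 0.0566) and the mean of all its probe sets (0.29, adjusted p = 0.176). The sign turned to -0.074 under scaling to the hybridisation controls.

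Of 5 interferon regulatory factors, 3 were called with miR-376a*G against control, in both directions (60%, beside 33.4% of all tested genes). With 5 genes this share is no result about the family. IRF3, which the sensors activate, had signals of 54.1, 42.3 and 42.3 with miR-376a*A, 95.7, 106 and 144.5 with miR-376a*G and 52.3, 87.1 and 59.7 with miR-control. Every miR-376a*G array exceeded all others, although control replicate 2 came close. IRF3 rose over control (log2 difference 0.80 ± 0.23 SE, adjusted p = 0.0268), and miR-376a*A was lower than miR-376a*G (log2 difference -1.29 ± 0.23 SE, adjusted p = 0.00259). The rise over control was lost in 6 alternatives, among them with arrays centred on their medians (0.57, adjusted p = 0.154). Others were the fits without miR-376a*G replicate 2 or 3 or control replicate 1 or 3 (adjusted p = 0.0590, 0.104, 0.0667 and 0.0824).

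IRF7, which amplifies interferon production, was lower on all 3 miR-376a*G arrays, with 34.6, 40.8 and 30.5, than on those of miR-376a*A (50.1, 54.2 and 46.1) and miR-control (50.1, 48.9 and 49.4). It fell against control (log2 difference -0.49 ± 0.16 SE, adjusted p = 0.0416), and miR-376a*A was higher than miR-376a*G (log2 difference 0.50 ± 0.16 SE, adjusted p = 0.0333). Both calls sat near the threshold and were lost in 10 or more alternatives each, among them the loss of miR-376a*G replicate 3 (adjusted p = 0.147 and 0.122), and under scaling to the hybridisation controls the values were -0.086 and -0.17. IRF9, the DNA-binding part of the complex that interferon activates, followed the same order. It read 354, 428 and 349.7 with miR-376a*A, 245, 280.2 and 270.5 with miR-376a*G and 347, 368.5 and 385 with miR-control, the miR-376a*G arrays being below all others. IRF9 fell against control (log2 difference -0.47 ± 0.12 SE, adjusted p = 0.0149), and miR-376a*A was higher than miR-376a*G (log2 difference 0.50 ± 0.12 SE, adjusted p = 0.00948). The fall was not called without miR-376a*G replicate 1 (adjusted p = 0.0663), without control replicate 3 (adjusted p = 0.0547) or under scaling to the hybridisation controls (-0.067, adjusted p = 0.691), where the difference between the miRNA forms was -0.17. IRF1 (log2 difference -0.30 ± 0.18 SE, adjusted p = 0.234) and IRF2 (log2 difference -0.018 ± 0.20 SE, adjusted p = 0.954) were not called against control, but another IRF1 probe set was lower with miR-376a*G (-0.61, adjusted p = 0.0161).

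Of the receptor chains, IFNAR2 rose in the miR-376a*G cells. Signals were 76.6, 98.75 and 104 with miR-376a*A, 149.7, 148 and 134 with miR-376a*G and 105, 88.8 and 81.3 with miR-control, so that the miR-376a*G arrays lay above all others. Against control it rose 1.57-fold (log2 difference 0.65 ± 0.16 SE, adjusted p = 0.0127), and miR-376a*A was below miR-376a*G (log2 difference -0.63 ± 0.16 SE, adjusted p = 0.0132). A second probe set gave 0.73 (adjusted p = 0.0270) and -0.95 (adjusted p = 0.00767), and another was called in neither comparison (0.29 and -0.42, adjusted p = 0.405 and 0.224). Both calls on the brightest IFNAR2 probe set were lost without miR-376a*G replicate 1 (adjusted p = 0.0514 and 0.0518) and with arrays centred on their medians (adjusted p = 0.0569 and 0.0721). IFNAR1, the other chain, was not called against control (log2 difference 0.25 ± 0.28 SE, adjusted p = 0.52). Another IFNAR1 probe set was lower with miR-376a*A than with miR-376a*G (-0.78, adjusted p = 0.0174).

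The IFIT proteins bind viral RNA and block its translation. All 4 were measured, and 2 were called lower with miR-376a*G than with control (50%, beside 15.4% of all tested genes called lower). With 4 genes this share is no result about the family. IFIT1 had signals of 109, 75.6 and 81.2 with miR-376a*A, 28.5, 44.3 and 25.9 with miR-376a*G and 76.3, 125 and 116 with miR-control. Each miR-376a*G array was below every other array. IFIT1 fell (log2 difference -1.66 ± 0.26 SE, adjusted p = 0.00149), and miR-376a*A exceeded miR-376a*G (log2 difference 1.42 ± 0.26 SE, adjusted p = 0.003). IFIT3 read 229, 211 and 184 with miR-376a*A, 144, 142 and 157.5 with miR-376a*G and 225, 268.5 and 263 with miR-control, again without overlap between miR-376a*G and the rest. It fell against control by 1.70-fold (log2 difference -0.76 ± 0.13 SE, adjusted p = 0.00208), with -0.54 (adjusted p = 0.0254) from a second probe set, and miR-376a*A exceeded miR-376a*G (log2 difference 0.49 ± 0.13 SE, adjusted p = 0.0167). Under scaling to the hybridisation controls the fall was not called (-0.36, adjusted p = 0.0857) and the difference between the miRNA forms was -0.18. The call between the forms was also lost in 3 alternatives that kept its sign, among them without miR-376a*G replicate 1 or 2 (adjusted p = 0.0603 and 0.0605). The second IFIT3 probe set was not called between the miRNA forms (0.35, adjusted p = 0.09995). IFIT2 (log2 difference -0.29 ± 0.16 SE, adjusted p = 0.199) and IFIT5 (log2 difference -0.73 ± 0.29 SE, adjusted p = 0.0844) were not called against control. Another IFIT2 probe set was higher with miR-376a*A than with miR-376a*G (0.51, adjusted p = 0.0277).

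The oligoadenylate synthetases, which make the activator of an RNA-degrading enzyme, went both ways. OASL, a relative without synthetase activity, was low with miR-376a*G, at 92.0, 102 and 99.4, against 309, 254 and 266 with miR-376a*A and 250.02, 278 and 285 with miR-control. There was no overlap, and the spread within each group was small beside the gap. OASL fell against control (log2 difference -1.46 ± 0.12 SE, adjusted p = 5.12e-05), and miR-376a*A was higher than miR-376a*G (log2 difference 1.48 ± 0.12 SE, adjusted p = 4.41e-05). A second probe set gave -1.34 (adjusted p = 4.18e-04) and 1.23 (adjusted p = 5.75e-04). OAS1 went the other way, with 20.5, 13.0 and 13.3 on the miR-376a*A arrays, 32.9, 34.4 and 28.3 with miR-376a*G and 13.1, 20.04 and 20.01 with miR-control. These signals lie near the array medians, and the miR-376a*G arrays were above all others. OAS1 rose over control (log2 difference 0.83 ± 0.26 SE, adjusted p = 0.0356), and miR-376a*A was below miR-376a*G (log2 difference -1.01 ± 0.26 SE, adjusted p = 0.0142). The rise was lost in 11 alternatives, among them without any one of the miR-376a*G or control arrays (adjusted p = 0.0551 to 0.105) and under centring on array medians (0.60, adjusted p = 0.176). The call between the miRNA forms was lost in 4 alternatives (adjusted p up to 0.0853). Another OAS1 probe set was called in neither comparison (0.56 and -0.94, adjusted p = 0.312 and 0.0926). OAS3 read 22.15, 5.77 and 20.9 with miR-376a*A, 38.3, 46.8 and 51.8 with miR-376a*G and 8.23, 29.85 and 19.6 with miR-control, with miR-376a*G above both groups. It was not called against control (log2 difference 1.36 ± 0.55 SE, adjusted p = 0.0871), and miR-376a*A was lower than miR-376a*G (log2 difference -1.62 ± 0.55 SE, adjusted p = 0.0442), a call lost in 10 alternatives, for example without miR-376a*A replicate 2 (-1.04, adjusted p = 0.118). OAS2 was not tested on its brightest probe set, and another one was higher with miR-376a*G than with control (1.20, adjusted p = 0.0149).

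ISG15 is a ubiquitin-like protein, HERC5 the ligase that attaches it to newly made proteins, and USP18 the enzyme that removes it. Of the 3, only HERC5 was called, against control and between the miRNA forms (33.3% in each, beside 33.4% and 38.2% of all tested genes). Its signals were 92.2, 126.5 and 73.3 with miR-376a*A, 213, 186 and 209 with miR-376a*G and 105, 107 and 92.8 with miR-control, and every miR-376a*G array was above all others. It rose over control (log2 difference 0.99 ± 0.19 SE, adjusted p = 0.00425), and miR-376a*A was below miR-376a*G (log2 difference -1.08 ± 0.19 SE, adjusted p = 0.00237). ISG15 (log2 difference -0.0073 ± 0.23 SE, adjusted p = 0.985) and USP18 (log2 difference 0.20 ± 0.22 SE, adjusted p = 0.515) were not called against control.

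Among other interferon-induced genes, IFI6 had the lowest difference of the 32. Its signals were 248, 203 and 156 with miR-376a*A, 66.6, 54.1 and 68.65 with miR-376a*G and 245, 319 and 300.6 with miR-control. The lowest of the other arrays was more than 2 times the highest miR-376a*G array. IFI6 fell (log2 difference -2.17 ± 0.19 SE, adjusted p = 7.15e-05), and miR-376a*A was above miR-376a*G (log2 difference 1.65 ± 0.19 SE, adjusted p = 2.64e-04). IFI44 moved the other way, with 228, 253 and 245 on miR-376a*A arrays, 319, 370.2 and 317 with miR-376a*G and 237, 236 and 247 with miR-control. The miR-376a*G arrays were above the rest. The gene rose over control (log2 difference 0.48 ± 0.11 SE, adjusted p = 0.009), and miR-376a*A was below miR-376a*G (log2 difference -0.47 ± 0.11 SE, adjusted p = 0.00901). Centring arrays on their medians left 0.25 (adjusted p = 0.260) and -0.22 (adjusted p = 0.303), neither called, and the mean of its probe sets ended the latter call too (adjusted p = 0.0886). Another IFI44 probe set was called in neither comparison (0.22 and -0.098, adjusted p = 0.400 and 0.704). IFI35 (log2 difference -0.28 ± 0.30 SE, adjusted p = 0.499) and IFI44L (log2 difference 0.15 ± 0.24 SE, adjusted p = 0.665) were not called against control. Nor were the antiviral GTPase MX2 (log2 difference -0.50 ± 0.21 SE, adjusted p = 0.0953) and the exonuclease ISG20 (log2 difference -0.13 ± 0.24 SE, adjusted p = 0.692).

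TAP1 and TAP2 form the pump that carries peptides to class I molecules, and they moved in opposite directions. TAP1 read 245, 266 and 299 with miR-376a*A, 116, 89.8 and 113 with miR-376a*G and 191, 240.3 and 229 with miR-control. The miR-376a*G arrays were below all others, and TAP1 was the 1 tested member whose miR-376a*A and control groups did not overlap (3.12% of 32, beside 6.15% of all genes). TAP1 fell against control (log2 difference -1.04 ± 0.15 SE, adjusted p = 9.43e-04), and miR-376a*A exceeded miR-376a*G (log2 difference 1.34 ± 0.15 SE, adjusted p = 2.26e-04). TAP2 had 101, 143 and 136 with miR-376a*A, 225, 203 and 234 with miR-376a*G and 149, 104 and 97.9 with miR-control, with the miR-376a*G arrays above all others. It rose over control (log2 difference 0.93 ± 0.20 SE, adjusted p = 0.00608), with 1.18 (adjusted p = 0.00817) from a second probe set, and miR-376a*A was below miR-376a*G (log2 difference -0.81 ± 0.20 SE, adjusted p = 0.0107). The second TAP2 probe set was not called between the miRNA forms (-0.61, adjusted p = 0.0973). Another was called in neither comparison (0.62 and -1.04, adjusted p = 0.383 and 0.139).

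The immunoproteasome subunits PSMB8 and PSMB9 cut the peptides that TAP carries. PSMB9, whose start lies 488 bases from that of TAP1 on the opposite strand (RefSeq), had 331, 325 and 242 with miR-376a*A, 256, 264 and 254 with miR-376a*G and 329, 389.5 and 354 with miR-control. The miR-376a*G arrays were below all control arrays but overlapped those of miR-376a*A through its replicate 3. It fell against control (log2 difference -0.47 ± 0.14 SE, adjusted p = 0.0317), and the 2 miRNA forms were not called apart (log2 difference 0.20 ± 0.14 SE, adjusted p = 0.293). The fall was lost in 7 alternatives, among them without any one miR-376a*G array or control replicate 2 or 3 (adjusted p = 0.0760 to 0.110) and under scaling to the hybridisation controls (-0.066, adjusted p = 0.764). PSMB8 read 434, 377 and 329.7 with miR-376a*A, 571, 551 and 559 with miR-376a*G and 418, 494 and 476 with miR-control, with miR-376a*G above both other groups. Against control it was not called (log2 difference 0.28 ± 0.12 SE, adjusted p = 0.11), while miR-376a*A was lower than miR-376a*G (log2 difference -0.57 ± 0.12 SE, adjusted p = 0.0062), a call lost with arrays centred on their medians (-0.32, adjusted p = 0.197). B2M, the light chain of class I molecules, was not called against control (log2 difference 0.079 ± 0.10 SE, adjusted p = 0.575). Another B2M probe set was higher with miR-376a*A than with miR-376a*G (0.29, adjusted p = 0.0405).

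The 8 untested members, DHX58, IFNB1, OAS2, MX1, RSAD2, BST2, IFITM1 and IFI27, had signals of at most 27.1 on any array, beside array medians of 18 to 24.6. Tested with no filter, none was called against control for either miRNA, and MX1, an antiviral GTPase, was lower with miR-376a*A than with miR-376a*G (-1.08, adjusted p = 0.0174). Its signals were 10.8, 10.9 and 10.1 with miR-376a*A, 27.1, 17.7 and 27.1 with miR-376a*G and 18.1, 14.7 and 11.5 with miR-control, with overlap between miR-376a*G and control. With no filter, 0% of all genes were called for miR-376a*A against control, 20.6% for miR-376a*G against control and 23.5% between the miRNA forms.

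With all 9 arrays as labelled, no member was called for miR-376a*A against miR-control (0 of 32). The smallest adjusted p was 0.886, 3 members had an unadjusted p under 0.05, and the log2 differences ran from -0.52 (IFI6) to 0.31 (USP18), with a median of -0.13 beside -0.023 over all genes. Over all 12587 genes none was called either (0%), with 463 at an unadjusted p under 0.05 (3.68%). When both arrays that stood apart were left out, an alternative added after the data had been seen, 15 members were called, 4 higher and 11 lower (46.9%, beside 41.9% of all genes, 19% higher and 22.9% lower), with 2 arrays left in each of these groups. The choice of these 2 arrays was made on the same values, and leaving out either one alone gave 0 calls.

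In that reduced comparison TLR3 was 2.41-fold lower with miR-376a*A (-1.27 ± 0.19 SE, adjusted p = 3.45e-04). The log2 difference was -0.90 for IFI35 (adjusted p = 1.2e-04), -0.84 for IFNAR1 (adjusted p = 2.69e-04), -0.79 for IFI6 (adjusted p = 0.00205) and -0.78 for ISG15 (adjusted p = 0.0111). The others called lower were IRF3, IFIT3, IFIT5, IFI44L, PSMB8 and PSMB9, from -0.76 to -0.40. EIF2AK2 (0.49, adjusted p = 0.00696), TAP2 (0.46, adjusted p = 0.00671), MAVS (0.43, adjusted p = 0.0312) and B2M (0.40, adjusted p = 0.00852) were higher. OASL and HERC5, which moved strongly with miR-376a*G, differed here by -0.12 (adjusted p = 0.400) and -0.0505 (adjusted p = 0.870).

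**Figure D3:**
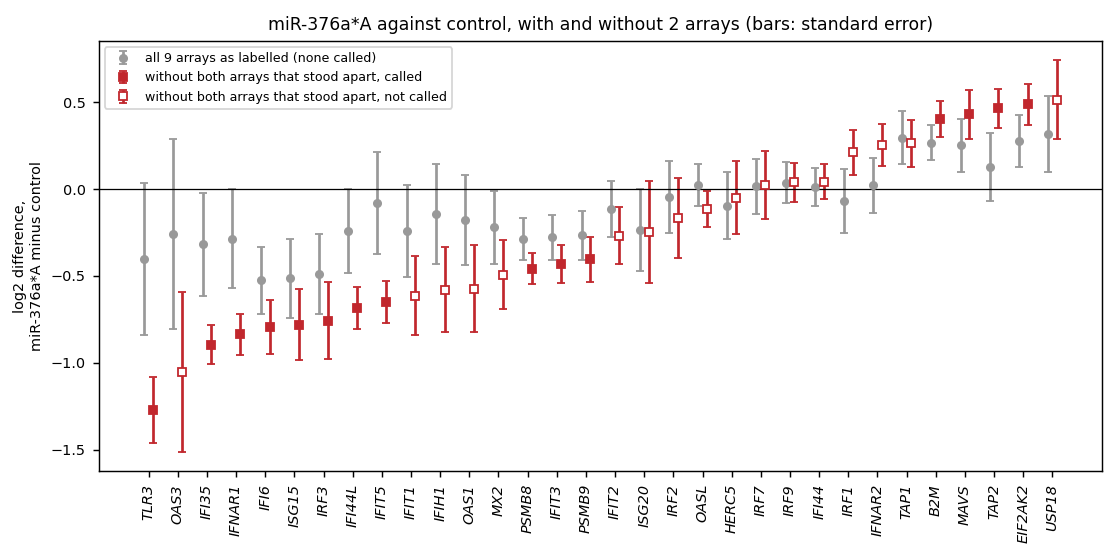
Log2 difference between miR-376a*A and control (y axis) for each tested member, with all 9 arrays (grey circles) and without miR-376a*A replicate 1 and control replicate 1 (red squares, filled where called); bars are the standard error. None of the grey values is called, and 15 of the red ones are, TLR3 lowest at -1.27.

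A moderated F test in limma asked whether a member differed among the 3 groups at all. It called 14 of 32 members (43.8%, beside 34% of all genes). The calls fell to 8 without miR-376a*G replicate 1 or 3 and to 9 without miR-376a*G replicate 2, with 21.6% to 22.7% of all genes called in these fits, and rose to 27 without both arrays that stood apart (all 14 kept), where 71.8% of all genes were called.

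The wider pathway was followed in 93 further genes, of which 86 were analysed and 74 tested. No such gene was called for miR-376a*A against control (0 of 74). With miR-376a*G, 3 rose and 22 fell (33.8%, beside 33.4% of all genes), and the median was -0.22. By direction, 4.05% rose against 18% of all genes, and 29.7% fell against 15.4%. By list, 0 rose and 3 fell of 19 genes of sensing and signalling, 2 rose and 3 fell of 11 of receptors and JAK-STAT signalling, 1 rose and 10 fell of 30 further interferon-stimulated genes, and 0 rose and 6 fell of 14 of antigen presentation. Between the miRNA forms, 25 were higher and 5 lower with miR-376a*A (40.5%, beside 38.2%). Those were 33.8% and 6.76% of the tested pathway genes, beside 16.4% and 21.8% of all genes. These splits turned under scaling to the hybridisation controls, to 17 rising and 11 falling with miR-376a*G against control and to 7 higher and 36 lower between the forms. Of all genes, 51.9% and 70.6% were then called in these comparisons. With arrays centred on their medians the splits were 2 and 30, and 31 and 2, beside 29.1% and 33.6% of all genes called. Relative to the median of all genes the pathway's median with miR-376a*G was -0.34 as deposited and -0.28 after quantile normalization. The other scalings shift each array as a whole and could not change this distance. Without both arrays that stood apart, 12 genes were higher and 18 lower with miR-376a*A than with control, and 16 were higher and 33 lower with miR-376a*G, beside 41.9% and 56.1% of all genes called in either direction.

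The class I transactivator NLRC5 fell 4.26-fold against control with miR-376a*G. Its signal was 317.4, 281 and 297 with miR-376a*A, 70.2, 66.2 and 67.4 with miR-376a*G and 266, 316 and 298 with miR-control, lowest on the miR-376a*G arrays (log2 difference -2.09 ± 0.11 SE, adjusted p = 1.04e-05). SOCS3, which inhibits cytokine receptor signalling, fell 4.20-fold (log2 difference -2.07 ± 0.14 SE, adjusted p = 1.8e-05), and UBE2L6, the enzyme that passes ISG15 to HERC5, fell 3.95-fold (log2 difference -1.98 ± 0.13 SE, adjusted p = 2.02e-05). Those 3 were also the farthest above miR-376a*G with miR-376a*A (2.12, 2.07 and 1.95). The 3 called higher than control with miR-376a*G were the antiviral adaptor TRIM14 (log2 difference 1.55 ± 0.17 SE, adjusted p = 2.35e-04), the JAK and STAT phosphatase PTPN2 (log2 difference 1.06 ± 0.14 SE, adjusted p = 5.35e-04) and PIAS1, a STAT inhibitor (log2 difference 0.49 ± 0.11 SE, adjusted p = 0.00765). PIAS1 was not called when arrays were centred on their medians (0.26, adjusted p = 0.283). Among called genes, the lowest with miR-376a*A against miR-376a*G were TRIM14 (-1.72), PTPN2 (-0.82) and HERC6 (-0.82, not called with arrays centred on their medians, adjusted p = 0.190). ADAR, the interferon-inducible enzyme that edits adenosine in double-stranded RNA, and the kinase JAK1 were picked after their values were seen. ADAR read 597, 536.5 and 509.6 with miR-376a*A, 226.5, 251.4 and 250.2 with miR-376a*G and 468, 634 and 504 with miR-control, and it fell against control (log2 difference -1.13 ± 0.13 SE, adjusted p = 3.17e-04). JAK1, which signals from the interferon receptor, fell too (log2 difference -1.05 ± 0.11 SE, adjusted p = 1.53e-04).

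**Figure D4:**
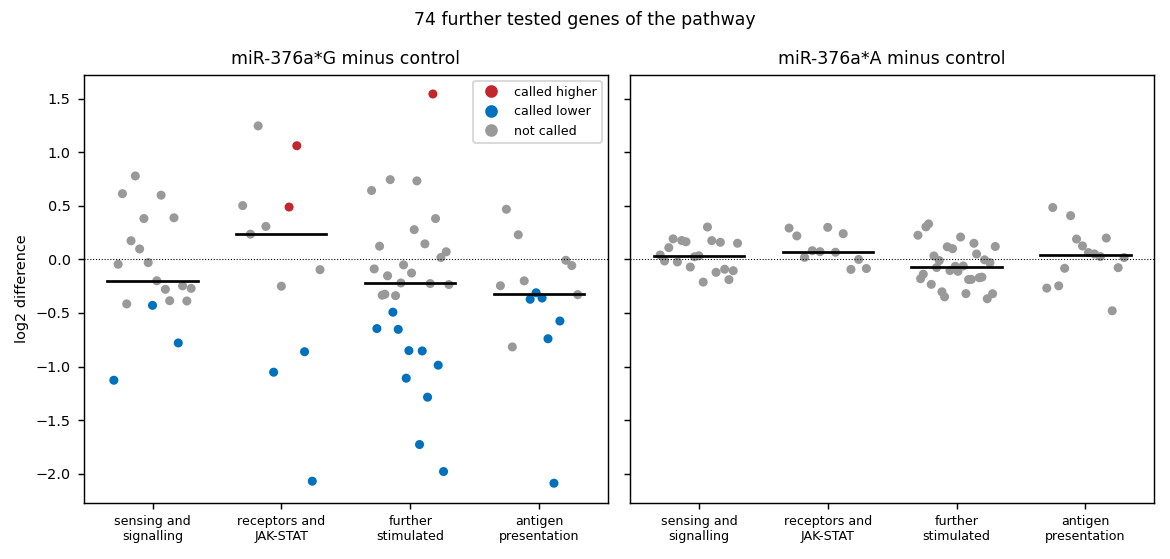
Log2 difference from control for 74 further tested genes of the pathway in 4 lists, for miR-376a*G (left) and miR-376a*A (right), each from 3 against 3 arrays as labelled. Points are genes, coloured by call, and the short lines are list medians. On the left 3 genes are called higher and 22 lower, down to -2.09 for NLRC5, and on the right none is called.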

How the data were processed

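Gene expression was measured on 9 Affymetrix arrays, 3 per group as labelled. The deposited values are linear intensities, 1 for each of 54675 probe sets, made in GCOS 1.4.0.036 according to the submitters' processing notes. Each array had been scaled by the authors, so a change in total messenger RNA is removed; probe summarisation is not given in the sources used here. A platform table gave names: 41097 probe sets had a single gene; 1801 with several genes and 11777 unlisted were left out. Each gene took its brightest probe set. Differences were tested on log2(signal + 1), which understates changes of dim genes, with limma 3.58.1 in R 4.3.3 (lmFit, eBayes with intensity trend, all 9 arrays in 1 fit, no covariates) and adjusted by Benjamini-Hochberg over 12587 genes. Those had signals above the array median on at least 3 arrays. The script was tested on simulated data. A fold is 2 to the power of the log2 difference. Named were members called in any test plus IFNB1, IFIH1, TLR3, EIF2AK2 and MAVS, and of other pathway genes called the 3 largest rises and falls per comparison. Members and lists were chosen with earlier results of these data known. Promoter and miRNA sequences are RefSeq's (GRCh38.p14). The number of arrays limits precision. In the pathway lists 7 genes were not analysed here. Alternatives covered the pseudocount, filter, scaling, probe set rule, trend, groups fitted, replicate block and single arrays, and, added after seeing the data, both arrays that stood apart.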

Additional observations from a re-analysis of the deposited data

How the results depend on the processing

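Counts of called members are given for the settings that changed them. Without both arrays that stood apart, miR-376a*A against miR-control had 15 calls in place of 0, and the F test had 27 in place of 14. With the replicate number as a block the F test called 9 members, and the 3 comparisons called 0, 10 and 12 in place of 0, 14 and 16, while 21.8% of all genes were called by the F test and 0%, 23.3% and 27.4% in the comparisons. Whether the numbers pair the samples could not be decided. Same-numbered miR-376a*A and control arrays deviated in opposite directions (r of -0.881, -0.606 and -0.556). Among the arrays other than those that stood apart, differently numbered ones did so too (r of -0.677 and -0.551). Differently numbered pairs with 1 array that stood apart had r of 0.656 to 0.767. The signs thus followed the arrays that stood apart, whatever the numbers. Same-numbered pairs with a miR-376a*G array had r of 0, -0.076 and 0.046 for miR-376a*A and 0.009, -0.007 and -0.167 for control. Differently numbered pairs with a miR-376a*G array ran from -0.099 to 0.149. Leaving out 1 array at a time gave 0 to 0 calls for miR-376a*A against control, 9 to 15 for miR-376a*G against control, 12 to 20 between the miRNA forms and 8 to 19 for the F test. Of all genes, 0%, 23.8% to 39.3%, 27.8% to 44.5% and 21.6% to 45.2% were called in these fits. Over the other planned settings the counts were 0, 12 to 15, 13 to 22 and 13 to 20. There 0%, 20.6% to 51.9%, 23.5% to 70.6% and 20.4% to 65.3% of all genes were called.

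Some signs turned. Scaled to the hybridisation controls, where the median over all genes was -0.81, the difference of miR-376a*A from miR-376a*G was -0.35 for IFIH1, -0.63 for EIF2AK2, -0.074 for MAVS, -0.17 for IRF7, -0.17 for IRF9 and -0.18 for IFIT3, and MAVS was -0.017 and 0.057 against control with miR-376a*A and miR-376a*G. With the mean of all probe sets IFIH1 was 0.073 against control with miR-376a*G and -0.21 between the 2 miRNA forms. EIF2AK2 between the forms was -0.029 after quantile normalization and ran from -0.071 to 0.16 over the arrays left out in turn, and IFIH1 against control with miR-376a*A from -0.36 to 0.16. The cause was not tested. The 3 arrays per group limit all calls. Near the array median, OAS1 lost its calls in 11 alternatives for miR-376a*G against control and in 4 between the miRNA forms. OAS3, also near it, lost its call between the forms in 10.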
